A study of Mus musculus with 13 samples.

Results

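The 8 genes Capn3, Spint1, Lrrc3, Liph, Ldhb, Cd34, Usp2 and Tmem8c were studied out of the 48587 gene symbols of a count table of nerve and brain macrophages. They were chosen by symbol because their counts in optic nerve macrophages lay far above those in sciatic nerve macrophages. Their difference between the nerves is therefore a description here and carries no test, and the comparison of optic nerve with brain, whose libraries the choice did not use, is the one that was tested. RNA sequencing libraries were made from macrophages of the optic nerve (4 libraries), macrophages of the sciatic nerve (4 libraries) and microglia of the brain (5 libraries). All came from C57BL/6J mice, and the labels name no treatment, age or sex, no separate animals and no sorting gate. Where replicates come from the same animals, p-values measure only the spread between samples. The series asks how macrophages differ between central nervous tissue, which includes the optic nerve, and peripheral nerve, here the sciatic.

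Microglia are the resident macrophages of the brain and optic nerve tissue and arise early in development, while macrophages of a peripheral nerve live among Schwann cells, fibroblasts and vessels. As background, the 8 genes share no single pathway. Capn3 (calpain 3, a calcium-dependent protease best known from skeletal muscle), Spint1 (a membrane-bound Kunitz-type inhibitor of serine proteases) and Usp2 (a protease that removes ubiquitin) act on protein turnover. Ldhb (the heart-type subunit of lactate dehydrogenase) and Liph (a phospholipase that makes lysophosphatidic acid) are metabolic enzymes. Cd34 (a sialomucin known from blood progenitors and endothelium), Lrrc3 (a membrane protein with leucine-rich repeats) and Tmem8c (myomaker, which fuses muscle precursor cells) are membrane proteins.

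All 8 are protein-coding genes on 6 chromosomes of mm10, by GENCODE M21. Capn3 (chr2:120456019-120504913), Spint1 (chr2:119237362-119249527) and Tmem8c (annotated as Mymk, chr2:27061636-27072179) lie on chromosome 2, far from each other. Lrrc3 lies at chr10:77897575-77902536, Liph at chr16:21953817-21995663, Ldhb at chr6:142490249-142507957, Cd34 at chr1:194938819-194961279 and Usp2 at chr9:44067021-44095627. RefSeq's table of start sites (GRCm38.p6) matched 7 of the 8, with 2 start sites for Capn3. The 250 bases upstream of the start site are shown for Cd34 and Ldhb, which were higher in optic nerve than in brain, and for Spint1 and Lrrc3, whose brain means were the higher ones. These 4 windows lie outside the annotated gene, apart from the last 2 bases of that of Cd34. Capitals mark CpG dinucleotides.
Cd34 promoter, chr1:194938571-194938820, plus strand: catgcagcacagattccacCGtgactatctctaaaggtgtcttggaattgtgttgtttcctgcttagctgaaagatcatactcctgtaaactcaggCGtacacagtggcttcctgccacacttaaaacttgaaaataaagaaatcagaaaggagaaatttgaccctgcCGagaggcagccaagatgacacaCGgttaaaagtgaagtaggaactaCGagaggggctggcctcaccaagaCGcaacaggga
Ldhb promoter, chr6:142507958-142508207, minus strand: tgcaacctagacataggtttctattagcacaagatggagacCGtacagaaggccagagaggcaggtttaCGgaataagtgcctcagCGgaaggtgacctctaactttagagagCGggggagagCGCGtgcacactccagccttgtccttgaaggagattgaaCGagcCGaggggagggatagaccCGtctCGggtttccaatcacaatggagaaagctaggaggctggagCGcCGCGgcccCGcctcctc
Spint1 promoter, chr2:119237110-119237359, plus strand: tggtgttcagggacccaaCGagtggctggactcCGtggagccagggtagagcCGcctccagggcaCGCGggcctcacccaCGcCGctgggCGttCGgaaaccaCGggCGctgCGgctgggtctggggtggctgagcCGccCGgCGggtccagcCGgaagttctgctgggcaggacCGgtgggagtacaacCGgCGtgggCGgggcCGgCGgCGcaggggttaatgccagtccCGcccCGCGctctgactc
Lrrc3 promoter, chr10:77902537-77902786, minus strand: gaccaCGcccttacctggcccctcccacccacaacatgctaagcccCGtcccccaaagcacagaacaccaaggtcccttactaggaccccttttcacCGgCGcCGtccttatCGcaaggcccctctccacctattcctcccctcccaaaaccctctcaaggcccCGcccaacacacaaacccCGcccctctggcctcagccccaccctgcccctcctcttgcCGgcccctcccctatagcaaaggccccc
The Spint1 window holds 26 CpGs and is 72.8% G and C, the Ldhb window 14 and 56.4%, the Lrrc3 window 9 and 64.8%, and the Cd34 window 6 and 46.4%. CpG content therefore ranged widely among genes that were all far lower in sciatic nerve. The median over 32851 windows of this length was 6 CpGs. The ratio of observed to expected CpGs was at least 0.6 in 3 of the 8 windows (Spint1, Ldhb and Usp2), against 34.0% of all windows. Letters of 4 short motifs were searched on both strands: GAGGAAG (core of the site of PU.1, a macrophage factor), CACGTG (E-box), TGAGTCA (AP-1) and TGCTGAC (core of the site of MAF factors). They occur in 10.6%, 6.02%, 4.46% and 3.81% of all windows, and the 8 windows held 1 match, TGCTGAC in the second Capn3 window. These counts describe letters in these windows and not binding.

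The libraries held between 10.9 and 23.5 M counts, so that 3 counts over a whole group correspond to 0.0512 CPM in sciatic nerve, 0.0409 in optic nerve and 0.0265 in brain. Levels are CPM, read counts relative to the TMM-adjusted size of each library, as mean ± SD over the 4, 4 or 5 libraries. Brain columns were assigned by elimination, and their replicate numbers here are those in the column names. Tmem119, a microglial surface protein, measured 4732 ± 918 CPM in brain, 1731 ± 314 CPM in optic nerve and 6.85 ± 1.85 CPM in sciatic nerve. All 10 macrophage markers listed were detected in every tissue. Brain replicates 1 and 2 stood apart over all genes: chi-square per degree of freedom between their counts and those of the other brain libraries was 117 to 299, against 15.0 to 15.9 among brain replicates 3 to 5 and 27.3 to 56.98 within the nerves. Brain replicate 1 had the lowest depth and 3.79% of its counts on mitochondrially encoded genes, more than any other library. Replicates 1 and 2 had the lowest Cd34, Spint1 and Lrrc3 levels of the 5 brain libraries and the highest Capn3 and Usp2 levels. Optic nerve was therefore also compared with brain without both replicates.

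In the central tissues the mean levels of the 8 genes ran from 24.3 CPM (Tmem8c in brain) to 710 CPM (Ldhb in optic nerve). In sciatic nerve 5 of the 8 were nearly absent. All 8 passed the filter on low counts, which their high groups alone would ensure. In sciatic nerve Capn3, Spint1, Lrrc3, Liph and Tmem8c had means under 1 CPM, at 3 to 8, 2 to 6, 1 to 6, 1 to 3 and 0 to 1 reads per library. Cd34 kept 2.07 ± 0.963 CPM there, Usp2 5.17 ± 1.08 CPM and Ldhb 6.605 ± 1.02 CPM, so the description as off does not hold for these 3, and Usp2 in sciatic nerve stood at 3.59% of its optic nerve level against 0.0950% to 0.931% for the others. Every optic nerve library lay above every sciatic nerve library for all 8, as the choice requires, where 14.4% of the 13246 tested genes did so. Every brain library also lay above every sciatic nerve library for all 8, against 19.2% of tested genes, a contrast that shares the sciatic nerve libraries used in the choice. In the reverse direction 22.1% of tested genes had every sciatic nerve library above every brain library. By the adjusted p, 21.8% of tested genes were called between the nerves, and 48.4% between sciatic nerve and brain, of which those lower in sciatic nerve were 24.3% of tested genes. In bulk libraries, fewer cells that express a gene and less RNA per cell cannot be told apart.

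**Figure D1:**
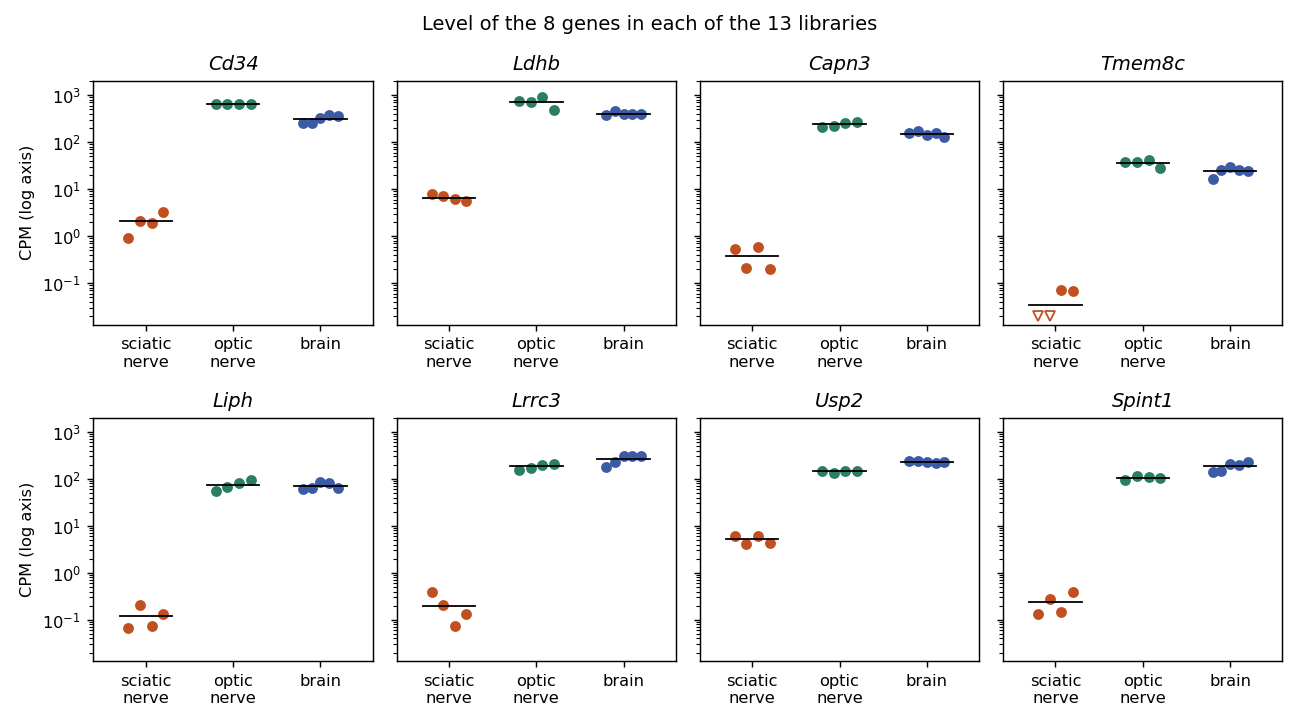
Level of each of the 8 genes in CPM on a log axis, 1 point per library, with a line at the mean of the tissue (4 sciatic nerve, 4 optic nerve, 5 brain libraries). Open triangles mark the 2 sciatic nerve libraries with 0 Tmem8c reads, drawn at the foot of the axis. All optic nerve and brain points lie above all sciatic nerve points, and panels run from the highest to the lowest ratio of optic nerve to brain.

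Between optic nerve and brain, the contrast that did not choose them, the 8 genes split. Capn3, Ldhb and Cd34 were higher in optic nerve, Spint1 and Usp2 were lower, and Lrrc3, Liph and Tmem8c were not called. Over all 13246 tested genes 19.6% were called higher and 17.4% lower in optic nerve, 36.9% in all. The optic nerve and brain libraries did not overlap for 5 of the 8 genes, the same 5 that were called, against 31.8% of all tested genes. The log2 fold changes of the 8 ran from -0.81 to 1.04 with a median of 0.32, where the median of all tested genes was -0.08. Since high optic nerve values were part of the choice, a positive value is favoured here. Without brain replicates 1 and 2 the same 5 genes and Lrrc3 were called, with log2 fold changes of 0.88 for Cd34, 0.85 for Ldhb, 0.79 for Capn3, -0.61 for Usp2, -0.99 for Spint1 and -0.73 for Lrrc3. The differences between the central tissues were at most 2.06-fold in mean CPM. Those from sciatic nerve were at least 27.9-fold, a gap that the choice of the genes favours and that is no result.

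**Figure D2:**
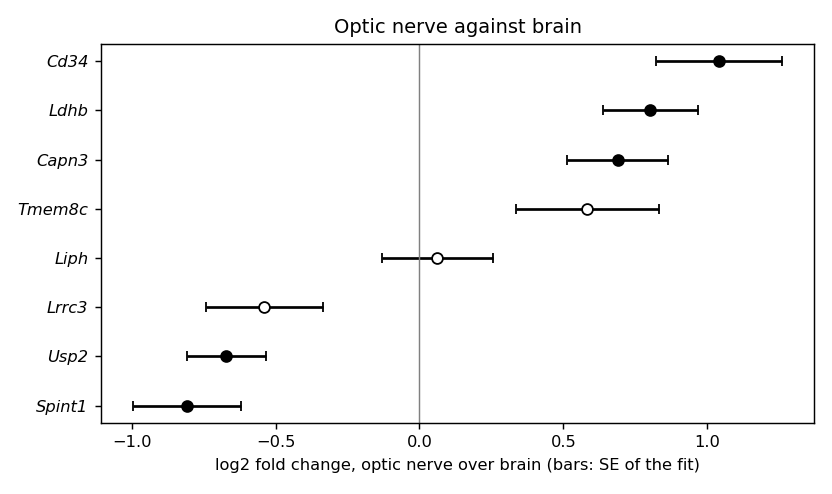
Log2 fold change of optic nerve over brain for each of the 8 genes, with bars for the standard error of the fit over 13 libraries. Filled points passed an adjusted p of 0.05 and open points did not. Cd34, Ldhb and Capn3 lie to the right of 0, Usp2 and Spint1 to the left.

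Levels of different genes can be compared per kb of annotated exon. In optic nerve the mean level per kb was highest for Ldhb (452 CPM per kb), followed by Cd34 (88.9), Capn3 (48.0), Lrrc3 (42.9), Spint1 (38.4), Usp2 (29.9), Tmem8c (24.1) and Liph (16.9). In brain Ldhb was again highest (259 CPM per kb), but Spint1 (67.2), Lrrc3 (62.3) and Usp2 (47.6) stood above Cd34 (43.2) and Capn3 (29.8), with Liph (16.2) and Tmem8c (16.1) lowest. In sciatic nerve Ldhb kept 4.21 CPM per kb, Usp2 1.07 and Cd34 0.284, and the other 5 at most 0.0859.

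Among the proteases and their inhibitor, Capn3 was higher in optic nerve than in brain, and Spint1 and Usp2 were lower. Capn3 measured 0.523, 0.208, 0.576 and 0.200 CPM in the 4 sciatic nerve libraries, 211, 225, 256 and 271 CPM in the 4 optic nerve libraries and 156, 171, 139, 155 and 126 CPM in the 5 brain libraries. The optic nerve and brain libraries did not overlap. Capn3 was called higher in optic nerve (log2FC 0.69, SE 0.17, adjusted p = 0.00688; log2FC is the log2 fold change, and every adjusted p given here is from the quasi-likelihood F-test of edgeR over all tested genes). Against sciatic nerve its mean was 639.7 times higher in optic nerve and 397 times higher in brain. Of the 9 other tested genes of the calpain system, 3 were higher in optic nerve than in brain and 1 lower, and 2 were higher and 0 lower in sciatic than in optic nerve, where 10.9% of all tested genes were higher and 10.9% lower. Their median log2 fold change was 0.40 between optic nerve and brain and 0.37 between the nerves, where those of all tested genes were -0.08 and 0.00. Capn2, the large subunit of the widely expressed m-calpain, had 167 ± 33.7 CPM in sciatic nerve, 19.0 ± 3.45 in optic nerve and 10.7 ± 6.24 in brain, and was called higher in sciatic than in optic nerve (log2FC 3.13, SE 0.74, adjusted p = 0.00607). Capn1, of the other widely expressed calpain, was higher in optic nerve than in brain (log2FC 2.52, SE 0.40, adjusted p = 1.96e-04), as was Cast, the calpain inhibitor calpastatin (log2FC 1.48, SE 0.27, adjusted p = 6.87e-04). Capn15 was lower in optic nerve relative to brain (log2FC -1.92, SE 0.59, adjusted p = 0.0201).

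Spint1 measured 0.131, 0.277, 0.144 and 0.400 CPM in the 4 sciatic nerve libraries, 95.0, 114, 111 and 106 CPM in the 4 optic nerve libraries and 139.9, 150.0, 209.5, 199.9 and 230.0 CPM in the 5 brain libraries. Both central tissues were high without overlap between them, and the lowest brain values were those of replicates 1 and 2. Spint1 fell in optic nerve relative to brain (log2FC -0.81, SE 0.19, adjusted p = 0.00381). Its paralogue Spint2, which inhibits like proteases, was too low to be tested, with 4 reads over all sciatic nerve, 7 over all optic nerve and 2 over all brain libraries. St14 (matriptase), a serine protease that SPINT1 inhibits, had 2.54 ± 1.77 CPM in sciatic nerve, 31.7 ± 7.23 in optic nerve and 14.7 ± 5.27 in brain. St14 was lower in sciatic than in optic nerve (log2FC -3.64, SE 0.69, adjusted p = 0.00130) and was not called between optic nerve and brain (log2FC 1.11, SE 0.58, adjusted p = 0.150). Of the 4 tested genes of this list other than Spint1, 1 was called higher in optic nerve than in brain, Met, the receptor of hepatocyte growth factor, at an uneven 1.32 ± 1.86 CPM in optic nerve with 3 reads in all brain libraries (adjusted p = 0.0309). The median log2 fold change of these 4 genes was 1.42 between optic nerve and brain and -0.92 between the nerves.

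Usp2 measured 6.15, 4.08, 6.05 and 4.40 CPM in the 4 sciatic nerve libraries, 149, 136, 145 and 146 CPM in the 4 optic nerve libraries and 238, 245, 225, 213 and 225 CPM in the 5 brain libraries. The spread within each central tissue was small, with a coefficient of variation of 3.94% in optic nerve and 5.43% in brain, and the tissues did not overlap. Usp2 fell in optic nerve relative to brain (log2FC -0.67, SE 0.14, adjusted p = 0.00177). Usp2 is known as a gene under control of the circadian clock, and the clock genes listed with it went both ways. Of the 16 other tested genes 3 were higher in optic nerve than in brain and 6 lower, and 4 were higher and 1 lower in sciatic than in optic nerve, with medians of -0.34 between optic nerve and brain and 0.41 between the nerves. Bhlhe40, a repressor of clock transcription, measured 111 ± 22.3 CPM in optic nerve against 0.934 ± 1.13 in brain (log2FC 6.97, SE 0.81, adjusted p = 1.07e-05). Per1, a core repressor that also responds to acute stimuli, was higher in optic nerve than in brain (log2FC 2.80, SE 0.40, adjusted p = 7.27e-05), and Hlf, a clock output factor, was lower (log2FC -3.63, SE 1.23, adjusted p = 0.0319). Ciart, another repressor, was higher in sciatic than in optic nerve (log2FC 2.96, SE 0.64, adjusted p = 0.00324). The labels used here give no time of day. Of 5 genes whose proteins are known substrates of USP2, 2 were higher in optic nerve than in brain and 0 lower, Mdm2, the ubiquitin ligase of p53 (log2FC 1.72, SE 0.19, adjusted p = 8.44e-06), and Tfrc, the transferrin receptor (log2FC 0.93, SE 0.30, adjusted p = 0.0257).

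Of the 2 metabolic enzymes, Ldhb was higher in optic nerve than in brain and Liph was not called. Ldhb measured 7.78, 7.06, 6.12 and 5.46 CPM in the 4 sciatic nerve libraries, 734, 712, 903 and 489.9 CPM in the 4 optic nerve libraries and 376, 472, 396, 399 and 393 CPM in the 5 brain libraries. Optic nerve replicate 4 was the lowest of its tissue and replicate 3 the highest, and all 4 lay above the brain libraries. Ldhb was called higher in optic nerve (log2FC 0.80, SE 0.16, adjusted p = 0.00172). Its mean was 107 times higher in optic nerve and 61.6 times higher in brain than in sciatic nerve. Ldha, the muscle-type subunit of the same enzyme, measured 444 ± 51.0 CPM in sciatic nerve, 753 ± 123 in optic nerve and 196 ± 30.9 in brain. Ldha was higher in optic nerve than in brain (log2FC 1.94, SE 0.16, adjusted p = 1.93e-07), lower in sciatic than in optic nerve (log2FC -0.76, SE 0.16, adjusted p = 0.00303) and higher in sciatic nerve than in brain (log2FC 1.18, SE 0.15, adjusted p = 1.68e-05). Ldhb made up 3.07, 3.29, 3.01 and 2.77% of both transcripts per kb of annotated exon in the sciatic nerve libraries. In optic nerve its share was 68.2, 65.9, 67.7 and 62.9%, and in brain 83.7, 80.9, 81.3, 82.2 and 79.2%. The shares of the 3 tissues did not overlap, and their order was brain, optic nerve, sciatic nerve. Ldhb was chosen for its low sciatic nerve counts, so the low share in sciatic nerve follows from the choice and is no result. All shares rest on exon lengths of 3310 bases for Ldha and 1570 for Ldhb, summed over all annotated transcripts. They also rest on the handling of reads that match gene copies elsewhere, which is not given in the sources used here.

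**Figure D3:**
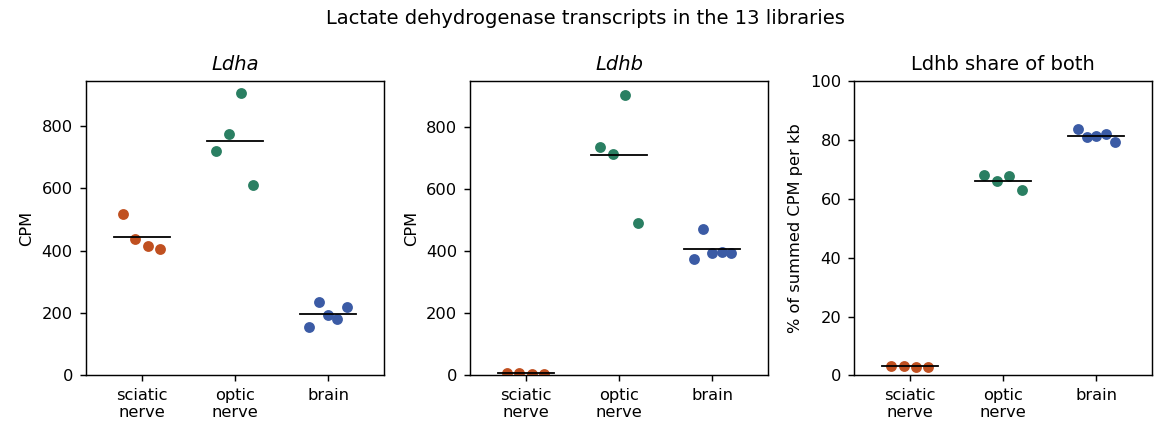
Ldha and Ldhb in CPM, and the Ldhb share of their summed CPM per kb of exon in percent, 1 point per library with a line at the mean of each tissue. The Ldhb share runs from 2.77% to 3.29% in sciatic nerve, 62.9% to 68.2% in optic nerve and 79.2% to 83.7% in brain, while Ldha is lowest in brain. The low sciatic nerve share follows from the choice of Ldhb.

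Of the 12 other tested genes of lactate and pyruvate handling, 6 were higher in optic nerve than in brain and 0 lower, and 6 were lower and 1 higher in sciatic than in optic nerve. Their median log2 fold change was 0.65 between optic nerve and brain and -0.54 between the nerves. Pdk1, a kinase that shuts the entry of pyruvate into the citric acid cycle, was lower in sciatic nerve at 14.8 ± 3.81 against 126 ± 22.2 CPM in optic nerve (log2FC -3.09, SE 0.23, adjusted p = 1.17e-07). Slc16a3, a lactate exporter, was also lower in sciatic nerve, at 11.5 ± 1.16 against 91.4 ± 11.7 CPM (log2FC -2.99, SE 0.21, adjusted p = 5.98e-08). Slc16a7, a carrier with high affinity for pyruvate, was the 1 gene higher in sciatic nerve (log2FC 1.52, SE 0.24, adjusted p = 2.86e-04).

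Liph measured 0.0654, 0.208, 0.0720 and 0.133 CPM in the 4 sciatic nerve libraries, 56.2, 66.3, 81.8 and 93.1 CPM in the 4 optic nerve libraries and 61.3, 63.9, 84.4, 83.4 and 63.1 CPM in the 5 brain libraries. The optic nerve and brain libraries overlapped, and no difference between them was called (log2FC 0.06, SE 0.19, adjusted p = 0.830). The sciatic nerve values rest on 7 reads in all. Other genes of lysophosphatidic acid production and sensing were mostly lower in optic nerve relative to brain, 6 of 9 tested with 1 higher, and 2 were higher and 1 lower in sciatic than in optic nerve. The median log2 fold change of these genes was -1.35 between optic nerve and brain and 0.69 between the nerves. Enpp2 (autotaxin), which makes the same lipid from lysophosphatidylcholine, had 0 reads in optic nerve and an uneven 11.8 ± 21.6 CPM in brain, from 0.0466 to 50.2 CPM (adjusted p = 0.00857). The receptor gene Lpar1 had 25.5 ± 7.44 CPM in sciatic nerve and 0.374 ± 0.223 CPM in optic nerve (log2FC 6.06, SE 0.69, adjusted p = 1.10e-05). Lpar5, another receptor, fell in optic nerve relative to brain (log2FC -2.74, SE 0.66, adjusted p = 0.00474), as did Plpp3, a phosphatase that degrades the lipid (log2FC -3.94, SE 0.95, adjusted p = 0.00495).

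Among the membrane proteins Cd34 had the largest excess in optic nerve over brain of the 8 genes. Cd34 measured 0.915, 2.14, 1.94 and 3.26 CPM in the 4 sciatic nerve libraries, 634, 648, 661 and 650.4 CPM in the 4 optic nerve libraries and 253, 256, 332, 376 and 359 CPM in the 5 brain libraries. The optic nerve libraries were nearly equal, with a coefficient of variation of 1.72%, and lay above all brain libraries, where replicates 1 and 2 were lowest. Cd34 was called higher in optic nerve (log2FC 1.04, SE 0.22, adjusted p = 0.00197). In sciatic nerve it ranged from 14 to 49 reads per library. Podxl, a sialomucin of the same family, had 0, 0 and 9 reads over all sciatic nerve, optic nerve and brain libraries. Of the 4 other tested genes listed with Cd34, 2 were lower in optic nerve relative to brain, and 1 was lower in sciatic than in optic nerve, with medians of -1.23 between optic nerve and brain and -0.95 between the nerves. Selplg, a ligand of selectins, measured 230.0 ± 45.9 CPM in sciatic nerve, 2570.5 ± 469 in optic nerve and 5645 ± 1131 in brain, and was lower in sciatic than in optic nerve (log2FC -3.48, SE 0.22, adjusted p = 2.40e-08) and lower in optic nerve relative to brain (log2FC -1.14, SE 0.19, adjusted p = 4.17e-04). Crkl, an adaptor that binds CD34, fell in optic nerve relative to brain (log2FC -1.32, SE 0.37, adjusted p = 0.0121).

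CD34 also marks endothelial and progenitor cells. Summed over 10 endothelial markers the level was 9.36 to 20.3 CPM in sciatic nerve, 12.7 to 20.1 in optic nerve and 18.3 to 49.8 in brain libraries, and Cldn5, Emcn and Esam had 0 reads in both optic nerve and brain. Pecam1, an adhesion molecule that leukocytes also carry, took the most counts of the list in both and was low in sciatic nerve like Cd34, at 0.168 ± 0.246 CPM against 6.66 ± 4.80 in optic nerve (log2FC -5.24, SE 0.85, adjusted p = 3.29e-04) and 29.1 ± 11.7 in brain. Flt1, a receptor of vascular growth factors, was also lower in sciatic than in optic nerve, at 0.0999 ± 0.200 against 3.03 ± 1.12 CPM (log2FC -4.82, SE 1.56, adjusted p = 0.0375). Egfl7 and Vwf, secreted by endothelium, went the other way, Egfl7 at 10.1 ± 1.85 CPM in sciatic nerve against 0.327 ± 0.270 in optic nerve (log2FC 4.91, SE 0.99, adjusted p = 0.00205) and Vwf at 1.40 ± 0.962 CPM with 1 read over the optic nerve libraries (adjusted p = 0.0274). Of the 10 progenitor markers Kit, Mpo, Gata2, Elane and Mecom had 0 reads in optic nerve. Ly6a, a surface antigen of progenitors and other cells, had the order of tissues of Cd34 at far lower levels, 3.12 ± 2.77 CPM in sciatic nerve, 16.0 ± 7.06 in optic nerve and 8.06 ± 2.93 in brain, and was lower in sciatic than in optic nerve (log2FC -2.36, SE 0.55, adjusted p = 0.00531). The part of these cells in the Cd34 values was not tested. The sum of the progenitor list, 247 to 345 CPM in optic nerve, was mostly Cd48, which many leukocytes express. Unlike Ly6a, Cd48 was highest in sciatic nerve, at 662 ± 57.3 CPM against 274 ± 36.0 in optic nerve and 174 ± 30.5 in brain. It was called higher in sciatic than in optic nerve (log2FC 1.27, SE 0.16, adjusted p = 3.81e-05). Flt3 also had its highest mean in sciatic nerve, at 4.64 ± 4.28 CPM against 0.931 ± 0.914 in optic nerve, without a call (adjusted p = 0.104). Of the 5 tested progenitor markers 1 was called higher and 1 lower in sciatic than in optic nerve.

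Lrrc3 measured 0.392, 0.208, 0.0720 and 0.133 CPM in the 4 sciatic nerve libraries, 157, 172, 199.5 and 208 CPM in the 4 optic nerve libraries and 179, 234, 312, 304 and 310.4 CPM in the 5 brain libraries. Optic nerve and brain overlapped through brain replicate 1, the lowest of its tissue. The difference missed the threshold (log2FC -0.54, SE 0.20, adjusted p = 0.0504), and without brain replicate 1 it was called (log2 fold change -0.65, adjusted p = 0.00610), as it was without brain replicate 2 (0.0475), sciatic nerve replicate 1 (0.0392) or sciatic nerve replicate 3 (0.0476). It was called in 9 of the 19 alternative fits, with adjusted p from 0.00170 to 0.142. Its sciatic nerve level rests on 12 reads in 4 libraries. The related genes Lrrc3b and Lrrc3c had 0 and 0 reads over the optic nerve libraries and were too low to be tested.

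Tmem8c measured 0, 0, 0.0720 and 0.0666 CPM in the 4 sciatic nerve libraries, 37.9, 38.0, 41.4 and 28.5 CPM in the 4 optic nerve libraries and 16.5, 26.1, 29.6, 25.4 and 24.1 CPM in the 5 brain libraries. It rested on 2 reads in sciatic nerve against 2684 in optic nerve and 2833 in brain. Its mean was 1052 times higher in optic nerve than in sciatic nerve, an imprecise ratio because it rests on these 2 reads. The choice of the gene favours a high ratio, which is no result. The difference between optic nerve and brain was not called (log2FC 0.58, SE 0.25, adjusted p = 0.0797), and optic nerve replicate 4 and brain replicate 3 overlapped. With DESeq2 it was called (adjusted p = 0.0247), and over all alternatives adjusted p ran from 0.0247 to 0.187. Tmem8, a paralogue, went the other way, at 38.2 ± 5.67 CPM in sciatic nerve and 1.47 ± 1.22 CPM in optic nerve (log2FC 4.69, SE 1.02, adjusted p = 0.00346), and Tmem8b had 2.80 ± 0.523 CPM in optic nerve without a call. The partner of myomaker in muscle fusion, listed as Gm7325, had 0 reads over the optic nerve libraries. Muscle markers were scarce where Tmem8c and Capn3 were high. The sum of 12 markers was 2.29 to 15.1 CPM in sciatic nerve, 1.24 to 2.92 in optic nerve and 0.334 to 3.85 in brain, and Myod1, Myog, Des, Myh1, Myh2, Myh4 and Pax7 had 0 reads in optic nerve. The 10 epithelial markers, listed because Spint1 and Liph are known from epithelia, summed to at most 0.376 CPM in any optic nerve library and 0.680 CPM in any brain library.

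To place the 8 genes beside genes with a like nerve difference, the 429 tested genes called lower in sciatic than in optic nerve with a log2 fold change of -3 or below were set apart. The 8 are among them by the way they were chosen, which is no result. By that fold change Tmem8c ranked 5th, Lrrc3 6th, Capn3 13th, Liph 14th, Spint1 23rd, Cd34 29th, Ldhb 115th and Usp2 291st of all tested genes. The rule gives no threshold, and higher-ranked genes such as B3galt5, a galactosyltransferase (rank 1), are not among the 8. Of the 429 genes 55 (12.8%) were called higher in optic nerve than in brain, 82 (19.1%) lower, and 292 (68.1%) were not called. Their median log2 fold change between optic nerve and brain was -0.22. Both contrasts share the optic nerve libraries.

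**Figure D4:**
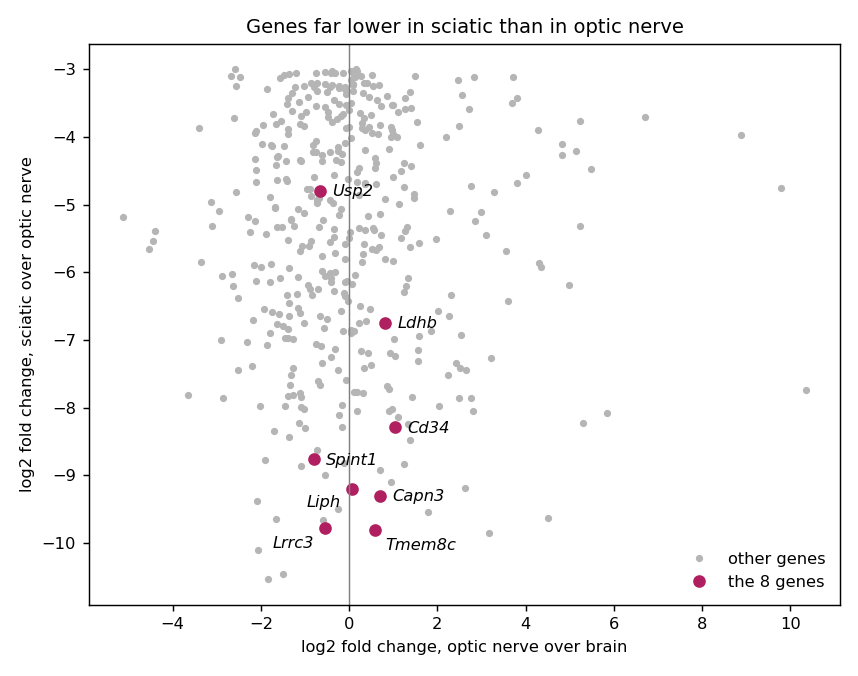
Each point is 1 of the 429 genes called lower in sciatic than in optic nerve with a log2 fold change of -3 or below, placed by its log2 fold change of optic nerve over brain (horizontal) and of sciatic over optic nerve (vertical). The 8 genes, in colour and named, lie between -0.81 and 1.04 on the horizontal axis, inside the spread of the other genes. The vertical value of Tmem8c rests on 2 sciatic nerve reads.

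Over the 13 libraries the 8 genes followed each other closely, as their common gap between sciatic nerve and the other tissues makes them do. Pearson's r of log2 CPM between pairs of them ran from 0.960 to 0.994 (28 pairs, 13 libraries that fall into 3 tissues). The 5 other genes most like their mean profile were Sparc, Spns3, Ctsd, Tspan7 and F11r, with r from 0.993 to 0.997. Sparc, a matrix-binding protein known from microglia, measured 28.2 ± 8.73 CPM in sciatic nerve, 5438 ± 781 in optic nerve and 5742 ± 733 in brain. Ctsd, the lysosomal protease cathepsin D, kept 890.1 ± 141 CPM in sciatic nerve and had 10847 ± 542 CPM in optic nerve. The gene most like Spint1 was Kcnd1 (r = 0.997), a potassium channel, at 32.7 ± 3.27 CPM in optic nerve against 71.4 ± 13.8 in brain. The gene most like Usp2 was Tmem119 (r = 0.996), the gene most like Ldhb was Ppfia4 (r = 0.996) and the gene most like Lrrc3 was Sparc (r = 0.997). Spns3 was the gene most like both Capn3 (r = 0.991) and Liph (r = 0.995), and Clcf1, a cytokine, the one most like both Cd34 (r = 0.991) and Tmem8c (r = 0.995).

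The traces in sciatic nerve can be set beside those of microglial markers. As a share of the optic nerve level, the 8 genes stood at 0.0950% (Tmem8c) to 3.59% (Usp2) in sciatic nerve. Of 14 microglial markers, Slc2a5 stood at 0.228%, Tmem119 at 0.396%, Sall1 at 0.424% and Sparc at 0.518%, while Csf1r, the growth factor receptor of all macrophages, stood at 67.7% and Fcrls, an Fc receptor-like gene, at 131%. Over the whole list the summed level was 7717 to 9229 CPM in sciatic nerve, 40151 to 44969 in optic nerve and 43470.1 to 84595 in brain, and no marker was at 0 in any tissue. Border macrophage markers ran the other way, at 15560.5 to 17497 CPM in sciatic nerve, 298 to 671 in optic nerve and 8.52 to 27.2 in brain. Fibroblast markers summed to 197 to 415 CPM in sciatic nerve, 13.02 to 41.3 in optic nerve and 2.27 to 7.65 in brain, and Schwann cell markers to 1034 to 1181, 529 to 744 and 340.4 to 751 CPM. The macrophage list summed to 44605 to 49516, 19240.0 to 21698 and 9899.5 to 21237 CPM in the same order, the oligodendrocyte list to 166 to 236, 267 to 333 and 123 to 179 CPM and the astrocyte list to 20.6 to 88.7, 82.6 to 106 and 184 to 243 CPM. Markers of T and natural killer cells reached at most 13.6, 4.91 and 0.0755 CPM, and those of neutrophils at most 2.20, 0.670 and 0.459 CPM. The part of a mixture of cells in the values of the 8 genes was not tested.

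Reads of adjacent genes can be counted on a gene where annotations overlap, and the strand setting of the counting is not given in the sources used here. Of the 18 nearest or overlapping annotated genes, 12 were tested and 6 of these were lower in sciatic than in optic nerve, against 10.9% of all tested genes. Ganc, a glucosidase gene that overlaps Capn3 on the same strand with 386 shared exon bases, had 8.996 ± 3.01 CPM in sciatic nerve and 19.6 ± 4.62 CPM in optic nerve (log2FC -1.12, SE 0.28, adjusted p = 0.00895). Gm16897 is antisense to Cd34 with 148 shared exon bases and had 2.37 ± 0.746 CPM in optic nerve. Without strand, its reads within these 148 bases cannot be told apart from those of Cd34. Next to Lrrc3, the calcium channel gene Trpm2 lies 5185 bases away and measured 2.26 ± 2.54 CPM in sciatic nerve, 29.9 ± 4.79 in optic nerve and 36.4 ± 13.1 in brain (log2FC -3.73, SE 0.67, adjusted p = 8.17e-04 between the nerves). Its other neighbour, the long non-coding RNA 1700009J07Rik, had 0 reads in sciatic nerve and 2.01 ± 2.16 CPM in brain. Adamtsl2, a secreted matrix protein gene 7199 bases from Tmem8c, had 2 reads in sciatic nerve and 2.61 ± 2.16 CPM in optic nerve (adjusted p = 0.00779). Senp2, a protease of the small modifier SUMO next to Liph, was lower in sciatic than in optic nerve (log2FC -1.61, SE 0.20, adjusted p = 2.29e-05) but remained at 47.2 ± 9.64 CPM there. Rnf26, a ubiquitin ligase gene 3 bases from Usp2, was at 3.68 ± 2.37 CPM in optic nerve and was not called between the nerves (log2FC -0.60, SE 0.47, adjusted p = 0.430).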

How the data were processed

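Sciatic nerve (4 libraries), optic nerve (4) and brain (5) share 1 table of deposited raw counts, which hold reads per gene symbol. The authors used STAR, the mm10 genome and featureCounts 1.5.1 (source: processing notes of the submitters). The version of STAR, the annotation, the strand setting and the handling of multi-mapped reads were not given in the sources used here. Nerve columns were matched by initials and replicate number. The other 5 columns, whose prefix the labels do not explain, were assigned to brain by elimination, and 0 columns of per-sample values were left out.

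The counts were tested with edgeR 4.0.16 in R 4.3.3: filterByExpr by group (13246 of 48587 symbols kept), TMM, 1 quasi-likelihood fit of all 13 libraries without a replicate block, Benjamini-Hochberg adjustment and calls at an adjusted p under 0.05. SEs are the size of the log2 fold change divided by the square root of F. Log2 CPM used a prior count of 2. The test was run on simulated counts first. No pair of replicates agreed within sampling noise (chi-square per degree of freedom 15.0 to 299 over 22 pairs). Positions and exon lengths are from GENCODE M21, promoters from RefSeq (GRCm38.p6).

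The 8 genes, 9 pathway lists and 13 marker lists were chosen with earlier results of these data known. Genes of a pathway list were named if called between optic nerve and brain or between the nerves, up to the 4 with the largest fold change, plus set paralogues, genomic neighbours, and the genes most correlated with the 8; B3galt5, Flt1 and Vwf were named after their values were seen. Alternatives were DESeq2 1.42.0 (test, or size factors only), other filters, only the 2 tissues compared, a replicate block and leaving out libraries. The values of 1 gene listed with Cd34 are not reported here.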

Additional observations from a re-analysis of the deposited data

Results flagged for a closer look

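In brain replicate 2 Ldhb measured 472 CPM, apart from the 376 to 399 CPM of the other 4 brain libraries. The gap to the nearest of them is 0.764 of the whole range. Of 24 groups of libraries checked (8 genes in 3 tissues) this was the 1 that stood out, and chance alone gives about 1 in 20. Ldhb in that library remained below the lowest optic nerve library.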

How the results depend on the processing

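Capn3, Cd34, Ldhb, Spint1 and Usp2 kept their direction and call between optic nerve and brain in all 19 alternative fits. Liph, not called in any, turned from 0.06 to -0.0621 without optic nerve replicate 4 (adjusted p = 0.845) and to -0.0398 without brain replicates 1 and 2 (adjusted p = 0.892), and its log2 ratio of mean CPM to -0.19 without TMM factors. The cause was not tested. Without 1 library at a time it ran from -0.0621 to 0.178. Leaving out each library in turn gave 3 of the 8 genes each time called higher and 2 to 3 lower, and 3972 to 5304 genes called in all between optic nerve and brain, 2446 to 3457 between the nerves and 5859 to 6665 between sciatic nerve and brain. Scaling by total counts moves the median log2 ratio of all tested genes by -0.25, -0.18 and -0.44 in that order. With a replicate block over the 8 nerve libraries 2840 genes were called between the nerves against 2892, and the block is only a shared number: same-numbered libraries' deviations correlated at -0.07 to 0.02. No paired comparison with brain was possible. Brain columns were assigned by elimination only, so the numbers in their names could not be tied to the labelled replicates. Depth limits the sciatic nerve levels of Capn3, Spint1, Lrrc3, Liph and Tmem8c, which rest on 2 to 22 reads.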

Other observations

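Other genes with a profile like that of the 8 spanned a wide range of levels. F11r, a junctional adhesion molecule, measured 23.7 ± 5.80 CPM in sciatic nerve, 1114 ± 47.1 in optic nerve and 1510.5 ± 329.7 in brain. Tspan7, a tetraspanin, measured 13.6 ± 2.06 CPM in sciatic nerve, 243 ± 29.3 in optic nerve and 291 ± 40.5 in brain. Spns3, of a family of lipid transporters, measured 0.0856 ± 0.0353 CPM in sciatic nerve, 20.3 ± 4.46 in optic nerve and 16.3 ± 2.80 in brain, and Clcf1 1.23 ± 0.194 CPM in sciatic nerve, 22.5 ± 1.89 in optic nerve and 17.6 ± 4.37 in brain. Ppfia4, a liprin, had the highest sciatic nerve level of these in CPM, at 76.4 ± 6.74 CPM in sciatic nerve, 536 ± 24.7 in optic nerve and 420.1 ± 47.4 in brain. These genes were picked for their likeness, so their values describe the profile and carry no test.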
